A study of Gallus gallus with 4 samples.

Results

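The major histocompatibility complex (MHC) genes of the chicken were read from 4 arrays of the bursa of Fabricius, where chicken B cells form. On 2 arrays the RNA came from follicle-associated epithelium (FAE), which caps the lymphoid follicles, and on 2 from interfollicular epithelium (IFE), which lines the surface between them. The members were all array probe sets (groups of short probes that together report 1 transcript) that the platform annotation assigns to a single gene among CD74, BLB1, BLB2, DMA, DMB2, B2M, BF1, TAP1, TAP2 and MHCY4. They came to 16 probe sets of 8 genes, out of 38439 probe sets in all and 13009 genes with a probe set of their own. BLB2 and BF1 had no probe set of their own: the annotation shares those of BLB2 with BLB1 and those of BF1 with BF2, and all 5 probe sets it shares between a member and other genes were not used.

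All samples came from healthy, specific-pathogen-free chicks of Line-M, 19 days old. Black ink, applied for 5 min, made the FAE visible. A solution of EDTA (40 mM) and Hepes (25 mM, pH 7.4) loosened the epithelium, FAE over 5 min at room temperature and IFE over 30 min at 37 ºC, and a 29G needle served to pick the cells. Effects of this EDTA step and of the epithelium cannot be told apart. The source label of the IFE samples reads FAE, and titles and cell type labels were followed. Separate birds or pools are not stated, so the p-values cover sample-to-sample spread that could be technical.

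MHC molecules carry peptides to the cell surface, where T cells read them. Class I molecules pair a heavy chain with beta-2-microglobulin (B2M) and take peptides that the TAP transporter brings from the cytosol into the endoplasmic reticulum. Class II molecules are built with the invariant chain CD74, travel to endosomes and exchange a fragment of CD74 for peptide with the help of DM. Class II genes are known for high activity in B cells, macrophages and dendritic cells, and are also active in some epithelia. In the gene table of the chicken assembly GRCg7b, the classical genes lie close together on chromosome 16 in the order BLB1, TAPBP, BLB2, BRD2, DMA, DMB1, DMB2, BF1, TAP1, TAP2 and BF2. MHCY4 belongs to the separate MHC-Y region of chromosome 16, CD74 lies on chromosome 13 and B2M on chromosome 10.

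The values below are scaled array signals, on which the median probe set of an array lies near 1, and levels of different probe sets are not comparable. Fold changes are FAE over IFE on the log2 scale with their standard error (SE). Tests are two-sided limma tests over 23063 probe sets with Benjamini-Hochberg adjustment, and a probe set was called at an adjusted p under 0.05. The number of arrays limits the precision: an exact permutation test of 2 against 2 arrays cannot go below 0.333, so the tests rest on the spread shared across the table. The background level of an array, the 95th percentile of 744 probe sets with no chicken prefix, was 0.671 and 0.683 in FAE, against 0.722 and 1.02 in IFE. The signal ratio of the 3' to the 5' probe set of beta-actin, which grows as RNA breaks down, was 14.4 and 18.6 in FAE, against 15.99 and 31.2 in IFE, with IFE replicate 2 the highest. The RNA was labelled in 2 cycles, and the part of this labelling in the ratios was not tested.

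Of the 16 member probe sets, 13 were bright enough to be tested. MHCY4, 1 BLB1 probe set, 1 CD74 probe set and DMA were higher in FAE. That made 4 calls in 4 genes, against 5.22% of all tested probe sets called higher. On the brightest tested probe set of each gene, 2 of 7 tested member genes (MHCY4 and DMA) were higher, against 6.3% of all tested genes. No member was called lower by limma, against 3.01% of all probe sets, although 3 were lower at an unadjusted p under 0.05. The groups did not overlap for 7 members that were higher in FAE and 3 that were lower, where 25.4% and 30.5% of all tested probe sets did so. Of these 3 lower members, 1 of BLB1 passed the filter through its IFE signals alone. The median log2 fold change was 0.32 over the tested members and -0.07 over all tested probe sets.

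**Figure D1:**
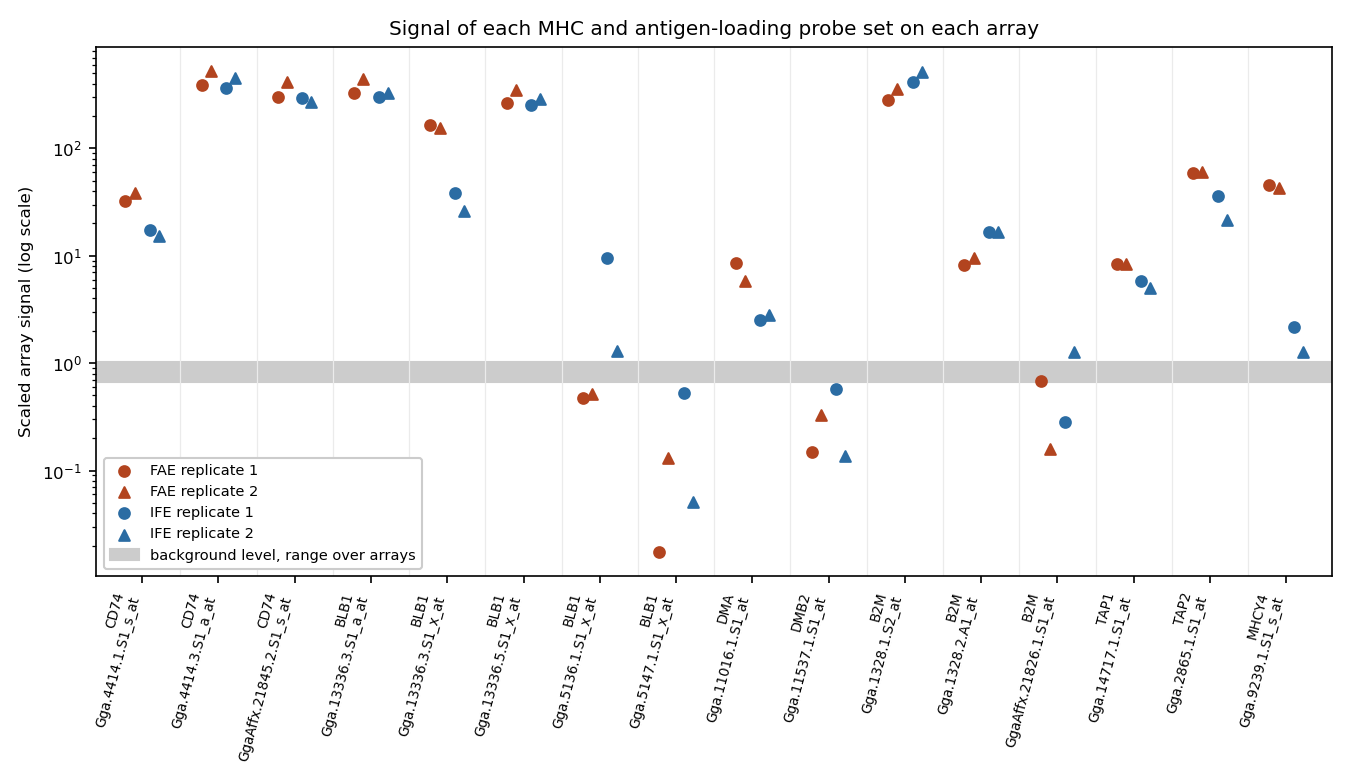
Scaled array signal (log axis) of the 16 member probe sets on each of the 4 arrays, FAE in red left of IFE in blue, with circles for replicate 1 and triangles for replicate 2. The grey band spans the background levels of the arrays, from 0.671 to 1.02. MHCY4 lay at 43.0 to 45.7 in FAE and at 1.28 to 2.19 in IFE, whereas the brightest CD74, BLB1 and B2M probe sets lay between 256 and 525 on all 4 arrays.

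MHCY4 encodes a class I-like heavy chain of the MHC-Y region, which is inherited apart from the classical MHC. Its probe set had signals of 45.7 and 43.0 in FAE, against 2.19 and 1.28 in IFE. Both FAE arrays were far above both IFE arrays, and IFE replicate 2 was little above its background of 1.02 and under the 99th percentile of the same probe sets, 1.73. The mean was 44.3 ± 1.93 in FAE and 1.74 ± 0.646 in IFE (SD, n = 2 each). The log2 fold change of 4.72 (SE 0.33, limma adjusted p = 0.00208) equals 26.4-fold, and its 95% interval ran from 3.95 to 5.5. Under the 11 alternative settings fitted, the change lay between 4.34 and 5.11 and the call was kept each time, with IFE replicate 2 left out (4.34) too.

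The MHCY4 probe set has the suffix _s_at, which marks a probe set that may detect several related transcripts, and MHC-Y holds many near-identical genes, so the signal may not be that of MHCY4 alone. Its paralogue MHCY10, another MHC-Y class I-like gene, was examined after its values were seen. The _at probe set of MHCY10 had 37.4 and 33.5 in FAE, against 83.7 and 53.2 in IFE. The _s_at probe set of MHCY10 had 35.05 and 31.1 in FAE, against 149.97 and 51.9 in IFE. Both stood lower on each FAE array than on either IFE array, as did 30.5% of all tested probe sets. Neither passed, with log2 fold changes of -0.91 (95% interval -1.57 to -0.26, limma adjusted p = 0.0994) and -1.42 (-2.51 to -0.32, adjusted p = 0.119). The changes were -0.59 and -0.65 without IFE replicate 1, and -1.24 and -2.18 without IFE replicate 2. In these runs the spread came from the FAE arrays alone. With the replicate block the _s_at probe set was called lower (limma adjusted p = 0.0165). The log2 fold change of MHCY4 exceeded that of MHCY10 by 5.64 and 6.14 on these probe sets. The exact permutation p of either difference was 0.333, the smallest possible here, so that test cannot decide whether they differ.

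B2M, the light chain that class I heavy chains need to reach the surface, had 3 probe sets. The brightest had signals of 284 and 359.5 in FAE, against 411 and 509.5 in IFE. A dimmer one had 8.26 and 9.43 in FAE, against 16.8 and 16.5 in IFE. Both stood lower on every FAE array than on any IFE array, as did 30.5% of all tested probe sets. Neither difference passed, at -0.52 (SE 0.20, limma adjusted p = 0.170) and -0.92 (SE 0.25, adjusted p = 0.0740), with 95% intervals of -0.99 to -0.05 and -1.51 to -0.32. The first had a mean signal of 250 or more. The 141 probe sets outside the members at that level had a median of -0.57, and -0.05 with quantile normalization. With that normalization the first B2M probe set turned to 0.01 (limma adjusted p = 0.973) and the second stayed at -1.01 (adjusted p = 0.0573). The first lay at -0.67 without IFE replicate 1 and at -0.36 without IFE replicate 2. The second lay at -0.90 and -0.93 in these runs, where the spread came from the FAE arrays alone. With the replicate block the first was called lower (limma adjusted p = 0.0450). The third was too dim to be tested, with 0.687 and 0.158 in FAE and 0.282 and 1.26 in IFE, and its groups overlapped.

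TAP1 and TAP2 are the 2 subunits of the peptide transporter of the class I pathway. TAP2 had signals of 59.0 and 59.7 in FAE, against 35.8 and 21.6 in IFE. TAP1 had 8.33 and 8.38 in FAE, against 5.80 and 4.96 in IFE. For both subunits the FAE arrays lay above the IFE arrays, as for 25.4% of all tested probe sets, and the FAE replicates were close to each other. TAP2 had a log2 fold change of 1.09 (SE 0.29, limma adjusted p = 0.0687, 95% interval 0.41 to 1.78). TAP1 had 0.64 (SE 0.26, adjusted p = 0.198, 95% interval 0.02 to 1.26). Neither passed. TAP2 lay at 1.46 without IFE replicate 1 and at 0.73 without IFE replicate 2. TAP1 lay at 0.75 and 0.53 in these runs, where the spread came from the FAE arrays alone. With the replicate block TAP2 was called higher (limma adjusted p = 0.0355).

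CD74, the invariant chain, guards the groove of class II molecules until they reach endosomes. Its dimmest probe set, an _s_at, had signals of 32.1 and 38.4 in FAE, against 17.4 and 15.3 in IFE, and was higher in FAE by 1.11 (SE 0.24, limma adjusted p = 0.0399). That call was lost without FAE replicate 1 (adjusted p = 0.387), without FAE replicate 2 (0.420) and with no intensity trend (0.126). The other 2 CD74 probe sets were not called. The _a_at probe set had 390.3 and 525 in FAE, against 361 and 449 in IFE, and its groups overlapped. With array controls left out, it was the brightest probe set of FAE replicate 1, and a single probe set was brighter on FAE replicate 2. On the IFE arrays 66 and 64 probe sets were brighter. The highest signal of an array, controls left out too, was 390.3 and 528 in FAE, against 619 and 803 in IFE. The brighter _s_at probe set had 301 and 410.3 in FAE, against 292 and 272 in IFE, without overlap, as for 25.4% of all tested probe sets. Their log2 fold changes were 0.17 (95% interval -0.32 to 0.66) and 0.32 (-0.16 to 0.80), with limma adjusted p of 0.674 and 0.389.

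BLB1 encodes a class II beta chain, the polymorphic partner in the peptide groove, and its 5 probe sets disagreed. One _x_at probe set had signals of 164 and 156 in FAE, against 38.3 and 26.1 in IFE, and was higher in FAE by 2.34 (SE 0.25, limma adjusted p = 0.00375), which is 5.06-fold. This call held under 10 of 11 alternatives and was lost without FAE replicate 1 (adjusted p = 0.0550). The _a_at probe set, which the annotation gives the same source sequence, had 325 and 443 in FAE, against 301 and 329 in IFE, with overlapping groups and a log2 fold change of 0.27 (95% interval -0.21 to 0.74). The changes on these 2 probe sets differed by 2.07. The exact permutation p was 0.333, the smallest possible, so that test cannot decide whether they differ.

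The brightest _x_at probe set of BLB1 had 262 and 349 in FAE, against 256 and 288 in IFE, and its groups overlapped too (log2 fold change 0.16, 95% interval -0.32 to 0.63, limma adjusted p = 0.686). Another, dim _x_at probe set lay the other way, with 0.472 and 0.517 in FAE, against 9.58 and 1.29 in IFE. Both FAE signals were under background and the IFE replicates were far apart, so no fold is given. It did not pass (limma adjusted p = 0.101) and was called lower with the replicate block (0.0146). The last _x_at probe set lay below background on all 4 arrays and was not tested. The suffixes _x_at and _a_at mark probe sets that may bind related sequences or several transcript forms, and BLB1 and BLB2 are near-identical, so these signals may mix both genes. MHC genes differ between lines, and how well the probes match the alleles of Line-M was not tested.

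DM releases the CD74 fragment from class II molecules. DMA, its alpha chain, had signals of 8.48 and 5.81 in FAE, against 2.52 and 2.82 in IFE. It was higher in FAE by 1.39 (SE 0.31, limma adjusted p = 0.0391), with both FAE arrays above both IFE arrays, as for 25.4% of all tested probe sets. That call was lost without FAE replicate 1 (adjusted p = 0.458) and FAE replicate 2 (0.145), with quantile normalization (0.0616), without the filter (0.0572) and without the intensity trend (0.107). DMB2, a beta chain of DM, was below background on all 4 arrays, with 0.149 and 0.332 in FAE and 0.573 and 0.136 in IFE, and was not tested.

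**Figure D2:**
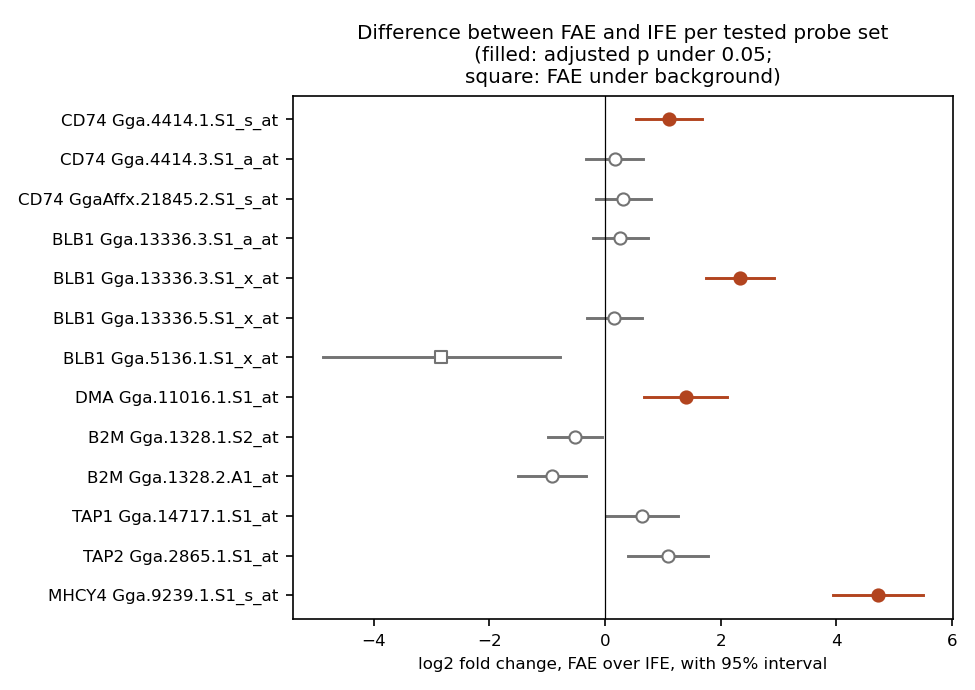
Log2 fold change, FAE over IFE, of the 13 tested member probe sets (points) with 95% intervals (lines). Filled red points passed an adjusted p of 0.05. MHCY4 stands at 4.72, and the called BLB1 probe set at 2.34. The square marks the BLB1 probe set whose FAE signals were both under background, so that the size of its difference was not measured.

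The 5 tested members with a mean signal of 250 or more, 2 of CD74, 2 of BLB1 and 1 of B2M, lay near the top of the arrays' range. With controls left out, at most 195 probe sets were brighter on any array. None of the 5 was called as reported. The other 141 probe sets of the array with a mean of 250 or more had a median log2 fold change of -0.57, with none called higher by limma (2 at an unadjusted p under 0.05) and 12 called lower. With quantile normalization the median of those 141 was -0.05, and the 4 CD74 and BLB1 probe sets among the 5 were called higher at 0.59 to 0.83 (adjusted p between 0.0103 and 0.0377). The part of signal near the top of the array's range in these results was not tested.

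**Figure D3:**
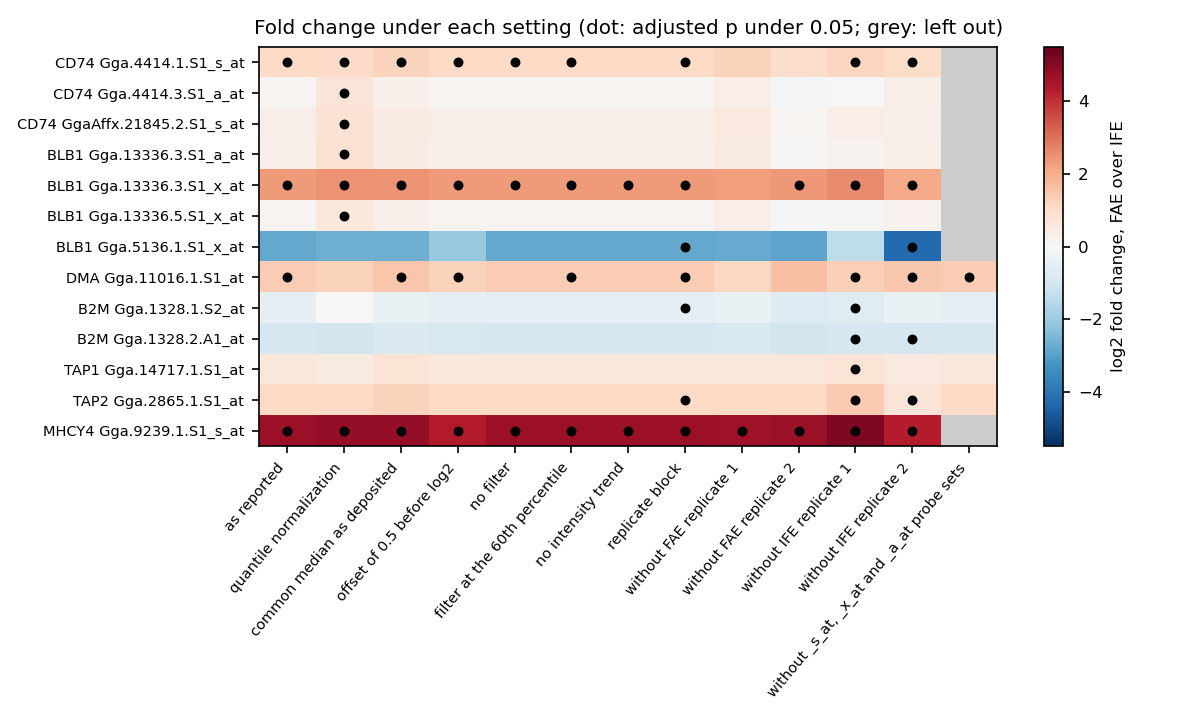
Log2 fold change, FAE over IFE (colour), of the 13 tested member probe sets (rows) as reported and under 12 alternative settings (columns). A dot marks an adjusted p under 0.05 and grey a probe set left out by that setting. MHCY4 carries a dot under every setting that fitted it, and the bright CD74 and BLB1 probe sets carry one with quantile normalization alone.

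Other genes of the pathways were read from the brightest tested probe set of each gene, among which 6.3% were called higher in FAE and 3.94% lower, with a median log2 fold change of -0.07. On the list of other class II chains and class II loading, 3 of 9 tested genes were called higher in FAE and none lower by limma (1 at an unadjusted p under 0.05), with a median of 0.80. These 9 were lysosomal enzymes and surface proteins such as CD83, with no class II chain among them. CD83, a protein of mature antigen-presenting cells that keeps class II at the surface in mammals, had 95.5 and 57.8 in FAE, against 14.2 and 10.8 in IFE (log2 fold change 2.59, SE 0.31, adjusted p = 0.00542). IFI30, a thiol reductase that unfolds antigens in lysosomes, had 73.9 and 51.0 in FAE, against 11.6 and 3.02 in IFE (3.37, SE 0.59, adjusted p = 0.0188). CTSB, a lysosomal protease, had 159.6 and 181 in FAE, against 66.7 and 67.7 in IFE (1.34, SE 0.19, adjusted p = 0.00995), and its other tested probe set was called too. Legumain (LGMN), another lysosomal protease, had -0.84 (adjusted p = 0.0621), CTSH 0.80 (0.0781) and CTSD 1.57 (0.0805). The other tested probe set of CTSD lay at 0.17. CTSS, which trims CD74 in mammals, had 0.78 (adjusted p = 0.193), and none of these genes passed. With no intensity trend, only CD83 of the 3 called genes kept its call (limma adjusted p = 0.0488). Without FAE replicate 1 none of the 3 calls was kept, and without FAE replicate 2 only CD83 kept its call (adjusted p = 0.0248).

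Among regulators of MHC genes, 2 of 11 tested genes were higher in FAE and 1 was lower, with a median of 0.05. CIITA, the transactivator on which class II genes depend, had 4.52 and 3.60 in FAE, against 1.32 and 0.993 in IFE, and was higher in FAE by 1.81 (SE 0.33, limma adjusted p = 0.0228). Its level on IFE replicate 2 was under that array's background. RFXANK, a subunit of the complex that binds class II promoters, was called higher on its brightest probe set at 1.12 (adjusted p = 0.0469) and lower on another at -1.72 (0.0231), so its probe sets disagree. The higher call of RFXANK was also lost with quantile normalization (adjusted p = 0.0778) and the common median (0.0516). IRF1, a factor that drives class I genes after interferon, had 104 and 87.3 in FAE, against 188 and 165 in IFE, and was lower by limma, at -0.88 (SE 0.20, adjusted p = 0.0444). The IRF1 call was lost with quantile normalization (adjusted p = 0.0873) and with the common median (0.100). NFYB had -0.82 (adjusted p = 0.203), IFNGR2 0.42 (0.334), NFYC -0.23 (0.633) and NFYA 0.23 (0.814). All calls of this group were lost without FAE replicate 1 and also without FAE replicate 2.

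None of 16 tested genes of other class I chains and class I loading was called by limma in either direction, and 1 was higher at an unadjusted p under 0.05, with a median of 0.16. Most of the 16 were proteasome genes, and BF2 was the only class I chain among them. The main classical class I heavy chain, BF2, had 218 and 207 in FAE, against 149.99 and 223 in IFE on its brightest probe set, and the groups overlapped (log2 fold change 0.21, 95% interval -0.33 to 0.76). That probe set is an _x_at, so its signal may not be that of BF2 alone. None of the 3 tested BF2 probe sets was called, and the lowest lay at -0.29. Tapasin (TAPBP), which holds class I at the transporter, had 0.69 (95% interval -0.05 to 1.44, adjusted p = 0.239). The chaperones calnexin (CANX) and calreticulin (CALR) had 0.45 and 0.69, and the proteasome activator subunit PSME3 had 0.43 (limma adjusted p between 0.205 and 0.291).

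Of 11 tested genes named for the region around the classical genes, TRIM39.2 was called higher at 1.42 (adjusted p = 0.0245), with 12.8 and 15.3 in FAE, against 5.67 and 4.83 in IFE. That was an _s_at probe set, and the other of the 2 tested TRIM39.2 probe sets (0.98) was not called. No other gene of that list passed, and its median was 0.30. TRIM7.2 had -0.82 (adjusted p = 0.242) and BRD2 -0.55 (0.437). The antigen-presenting molecule CD1C had both IFE signals under background and passed the filter through its FAE signals alone. It was at least 1.11-fold higher in FAE and did not pass (limma adjusted p = 0.378).

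**Figure D4:**
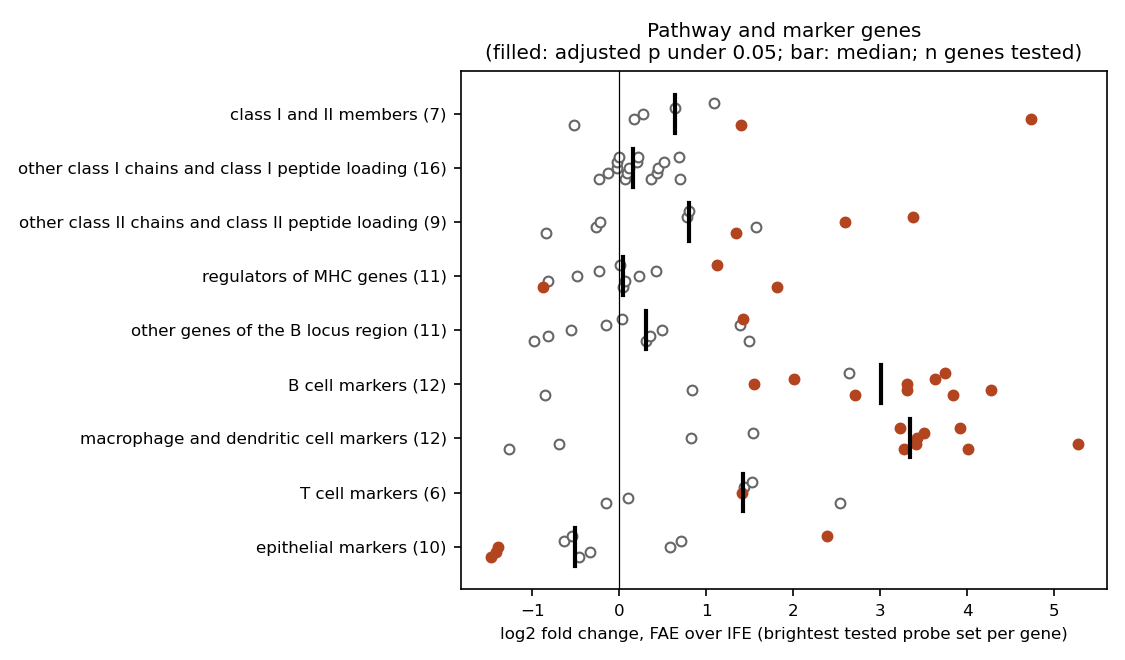
Log2 fold change, FAE over IFE, of each tested gene (points, brightest tested probe set) in the member, pathway and marker lists, with the median as a black bar and the number of genes in parentheses. Filled red points passed an adjusted p of 0.05. Medians are 0.16 for other class I genes, 0.80 for other class II genes, 3.01 for B cell markers, 3.34 for macrophage and dendritic cell markers and -0.50 for epithelial markers. Most tested genes of the other class I list are proteasome genes, and the other class II list has no tested class II chain.

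Most markers of cells that carry class II moved with the groups. Of 12 tested B cell markers, 9 were called higher in FAE and none lower by limma (0 at an unadjusted p under 0.05), with a median of 3.01. Their summed signal was 573 to 594 in FAE and 116 to 126 in IFE, and such sums follow the brightest probe sets. CD72 gave the largest part in FAE (243 and 259). LYN, not called on its brightest probe set, gave the largest part in IFE (60.3 and 72.2). BTK (4.27), SYK (3.74), CD79B (3.30) and IKZF3 (2.71) led by adjusted p, although the other tested probe set of IKZF3 lay at -0.13. Of 12 tested macrophage and dendritic cell markers, 8 were higher and none was lower (1 at an unadjusted p under 0.05), with a median of 3.34 and a summed signal of 606 to 723 in FAE and 64.4 to 81.9 in IFE. SPI1 (3.27), CSF1R (3.50), ITGB2 (3.92) and MERTK (4.01) led that list. C1QC, 1 of the 8 called, was not above background in IFE and passed the filter through its FAE signals alone. A few markers lay the other way without passing or overlapping between groups: PAX5 of the B cell list at -0.85 (limma adjusted p = 0.315), and IRF8 at -1.27 (0.0719) and MARCO at -0.69 (0.325) of the macrophage and dendritic cell list.

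Of 10 tested epithelial markers, 3 were lower in FAE (ELF3 at -1.48, PKP2 at -1.42, CDH17 at -1.40) and 1, VIL1, was higher at 2.39, with a median of -0.50. Their summed signal was 1142 to 1403 in FAE and 1944 to 2086 in IFE, and such sums follow the brightest probe sets. Among these, EPCAM (-0.55), CDH1 (-0.64) and KRT7 (-0.46) did not pass on their brightest probe sets, which had mean signals of 250 or more. The 141 probe sets outside the members at that level had a median of -0.57, and -0.05 with quantile normalization. The part of the signal range in these sums was not tested. Of the 3 tested EPCAM probe sets, 1 was called lower in FAE, and the lowest lay at -0.82. DSP (0.71) and CLDN3 (0.58) lay the other way without overlap, as for 25.4% of all tested probe sets. Neither passed (limma adjusted p = 0.123 and 0.300). Of 6 tested T cell markers, CD3E (1.41) was called. Of 3 tested erythrocyte and thrombocyte genes, HBA1 was called and was at least 5.61-fold higher in FAE. That probe set passed the filter through its FAE signals alone, and the other of the 2 tested HBA1 probe sets (1.70) was not called. The part of these cells in the changes of MHCY4, CD74, BLB1, DMA, CIITA and the class II loading genes was not tested, and in whole samples fewer cells of a type and less RNA per cell cannot be told apart.

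By the 4 centred log2 signals, the genes nearest to the brightest CD74 probe set were TAMM41, IP6K2 and VPS4B, at Euclidean distances of 0.0460 to 0.0672. Those nearest to the brightest B2M probe set were PIN4, RPL35 and LINS1, at 0.0402 to 0.0525. TAMM41 (0.769 to 1.15), VPS4B (1.10 to 1.51) and LINS1 (1.37 to 2.40) had low signals, and TAMM41 was under background on IFE replicate 2. Patterns over 4 arrays describe these samples alone.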

How the data were processed

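RNA of 2 FAE and 2 IFE samples was labelled in 2 cycles and hybridised to 1 array each. The authors deposited a linear MAS5 intensity for each probe set, with a median of 1 on every array (MAS5 is named in the submitters' processing notes, its version is not). Of 38535 probe sets, 96 array controls were left out. Of the other 38439, 27168 name 1 gene, 177 several and 11094 none in the platform annotation. Gene names follow Entrez IDs in the table of assembly GRCg7b. Coordinates are left out, since the array values carry no build.

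Each array was brought to the same mean after trimming 2% at each end, and log2 values were used with no offset. The 23063 probe sets whose mean scaled signal reached the 40th percentile (0.695) were tested with limma 3.58.1 in R 4.3.3 (intensity trend, Benjamini-Hochberg). A gene was read from its brightest tested probe set. A fold against signals under background is a bound against that background level, written as at least N-fold. Members, lists and tests were chosen with earlier results of these data known. Named genes were every member, the called members and up to 4 more of each pathway list, up to 4 of other lists, and the 3 genes nearest to CD74 and to B2M. MHCY10, BF2, C1QC, CD72, LYN, PAX5, IRF8, MARCO, EPCAM, CDH1, KRT7, DSP and CLDN3 were named outside that rule.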

Additional observations from a re-analysis of the deposited data

How the results depend on the processing

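Against 4 member probe sets higher and 0 lower as reported, leaving out each sample in turn gave between 1 and 6 members higher and between 0 and 2 lower, with 1 without FAE replicate 1 and 2 without FAE replicate 2. Over all probe sets these runs called 191 (without FAE replicate 1) to 3567 (without IFE replicate 1) higher and 44 to 2471 lower, against 1204 and 695 as reported. In the 3 pathway lists they called 0 to 10 genes higher and 0 to 5 lower, against 5 and 1. B cell markers higher in FAE numbered 4 to 11, macrophage and dendritic cell markers lower 0 to 1, and epithelial markers 0 to 2 higher and 0 to 4 lower. Where a group was left with 1 array, it was assumed to vary like the other. Without the intensity trend, 449 probe sets were higher and 102 lower, with 2 members, 1 and 0 pathway genes, 4 B cell markers, and 0 and 0 epithelial markers. Quantile normalization called 7 members higher, 0 pathway genes lower and 1 macrophage marker lower. The common median and the run without the filter each left 0 pathway genes lower, and leaving out _s_at, _x_at and _a_at probe sets, 1 member was higher, as most members are of that kind and were left out. The median over all tested probe sets was -0.07 as reported and 0.06 with the common median. Replicate numbers are shared between the groups, but nothing says that they mark a bird, and deviations of same-numbered arrays correlated at 0.0246. With the replicate block, 1083 probe sets, 2 members, 2 pathway genes, 1 macrophage marker and 5 epithelial markers were lower. For single probe sets, 187 refits kept direction and side of the threshold, 32 lost a call, 19 gained one and 3 turned. Leaving out each sample in turn moved the brightest CD74 probe set between -0.0454 and 0.381 and the brightest _x_at probe set of BLB1 between -0.0483 and 0.362, both below 0 without FAE replicate 2. The brightest B2M probe set turned to 0.0085 with quantile normalization. The cause was not tested. Signals near background limit DMB2, 2 probe sets of BLB1 and 1 of B2M.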
